A study of Mus musculus with 4 samples.

Results

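Protein tyrosine phosphatases and dual-specificity phosphatases remove phosphate from tyrosine, or from tyrosine together with serine and threonine. The genes described here are those whose symbol on the array starts with Dusp or Ptpn and a digit, or with Ptpr and 1 letter, with Ptprj left out. They came to 124 probe sets of 57 genes, out of 18193 named genes on the array, and comprised 24 dual-specificity, 16 non-receptor and 17 receptor phosphatase genes. Expression was measured in bone marrow cells of female C57Bl/6J mice aged 12 weeks, with 1 Affymetrix array at each of 4 times. Day 1 was marrow on the day it was taken. Day 4 was marrow after 3 days of culture with 10% serum and 10 nM vitamin D3. Days 5 and 7 were cultures that also received 20 ng/ml M-CSF, a growth factor of macrophages, and 40 ng/ml RANKL, the cytokine that drives osteoclast formation. The labels put these at 4 and 6 days of differentiation, taken here as counted from the start of culture. No genetic change and no sort of the cells is labelled, and the labels do not say how many mice gave marrow or whether the arrays share a culture.

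Each time had 1 array, so there was no replicate, no test and no p-value, and each value describes these 4 arrays. Both arrays of the later days had M-CSF and RANKL, and the effect of these cytokines and that of time in culture cannot be told apart. A signal below 32.4 units, the median of all values, was set to that floor. A gene was said to have risen or fallen where the later day differed from the earlier one by at least 2-fold, a threshold of size, and "at least" before a fold marks a gene at the floor on 1 of the 2 arrays. Where 4 signals are listed for a gene they stand for days 1, 4, 5 and 7, in units of the array signal as deposited, before the floor. Between 46.6% and 52.6% of the probe sets lay above the floor on each array. The log2 differences of probe sets of the same gene had a pooled SD of 0.41 for day 4 against day 1, 0.29 for day 5 against day 4, 0.26 for day 7 against day 5, 0.36 for day 7 against day 4 and 0.53 for day 7 against day 1. This spread describes the probe sets and not variation between cultures. The labels call the cells of all 4 arrays primary osteoclasts, yet the calcitonin receptor gene Calcr was below the floor on days 1 and 4, and Dcstamp, needed for osteoclast fusion, was below it on day 1. Of 12 osteoclast markers, 8, 11, 12 and 12 were above the floor on days 1, 4, 5 and 7. Their summed signal was 10394, 30262, 48948 and 57710.2. Not every marker went with the sum. On day 7 over day 1, 11 of the 12 rose (12.7% of all genes), and the other had a log2 difference of -0.92. On day 7 over day 4, 4 rose and 1 fell, where 3.12% and 9.12% of all genes did.

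Osteoclast formation runs on phosphotyrosine. M-CSF acts through a receptor tyrosine kinase, RANKL signalling activates the MAP kinases ERK, JNK and p38, and costimulation by ITAM adaptors works through the kinases Src and Syk. The typical dual-specificity phosphatases switch off MAP kinases and are themselves often induced by them. Among non-receptor types, Ptpn6 is known as a brake on osteoclasts, while the receptor-type genes Ptpre and Ptpro encode proteins that act on Src in these cells.

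Of the 57 genes, 48 exceeded the floor on 1 array or more and 35 on all 4. Dusp15, Dusp21, Dusp26, Dusp27, Ptpn5, Ptpn20, Ptprn2, Ptprr and Ptprz1 were above it on none, with signals of 29.0 or less on each of their 16 probe sets. In all, 20 genes rose or fell in at least 1 of 5 comparisons, which share arrays with each other, and 28 stayed between -0.99 and 0.96 on the log2 scale in every one. The share of all genes that rose or fell in at least 1 of the 5 was not computed, so these 20 have no background beside them. Each gene is counted here by its main probe set, the one with the highest mean log2 signal.

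On day 4 over day 1, 11 of 48 measured phosphatase genes rose (22.9%), where 10% of all genes did, and 3 fell (6.25%), where 8.65% of all genes did. On day 5 over day 4, 2 of 46 rose (background 2.02%) and 1 fell (background 4.04%). On day 7 over day 5 no phosphatase gene of 46 rose (background 0.853%) and 6 fell (13.0%, background 5.84%). Most phosphatase genes were within 2-fold at each step, and most of the rises came with the first step.

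Between days 7 and 4, 2 of 45 rose (background 3.12%) and 2 fell (background 9.12%). On day 7 over day 1, 11 of 48 rose (22.9%, background 12.7%) and 7 fell (14.6%, background 16.2%). The median log2 difference of the phosphatase genes was 0.10, 0.09, -0.12, -0.07 and 0.21 in these 5 comparisons, beside 0.06, 0.06, -0.11, -0.09 and 0.01 for all genes measured. Rescaling the arrays moved the median of all genes on day 7 over day 5 from -0.11 to 0.06 (arrays scaled to the same median) or to 0.03 (quantile normalization), and relative to it the phosphatase genes stood at -0.003 as deposited, -0.01 and -0.03. For day 7 against day 4 the median of all genes became 0.07 and 0.05 and the phosphatase genes stood at 0.02, 0.02 and -0.06 relative to it; for day 7 against day 1 it became 0.14 and 0.17 and they stood at 0.21, 0.22 and 0.30. Both medians for day 7 against day 5 turned with the scaling, the phosphatase median to 0.04 and 0.004. For day 7 against day 4 the median of all genes turned under both scalings, while the phosphatase median became 0.09 after median scaling and -0.01 after quantile normalization. The phosphatase counts on day 7 over day 5 became 1 risen and 4 fallen after median scaling, and 1 and 2 after quantile normalization.

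**Figure D1:**
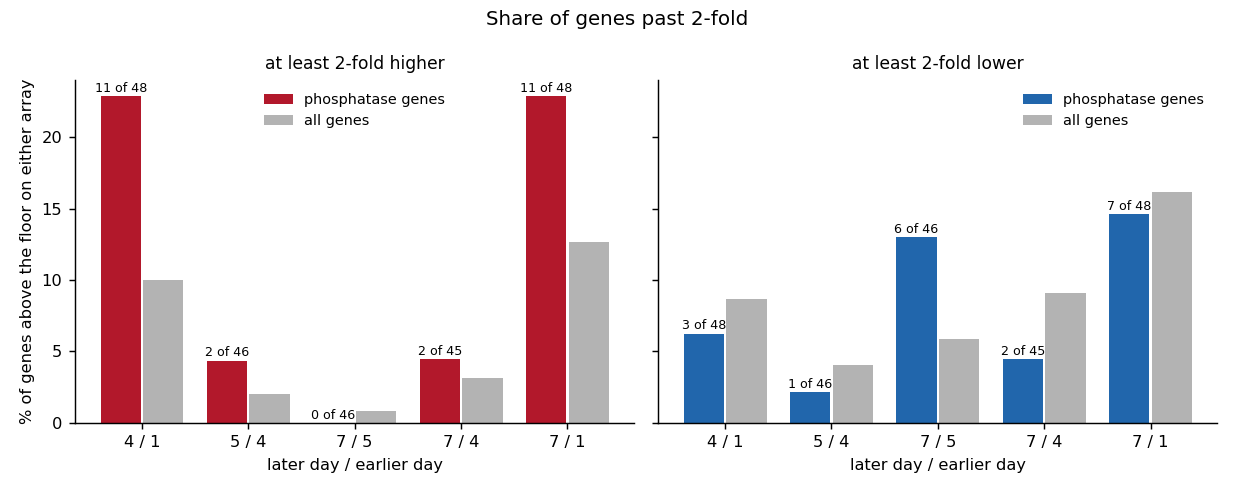
Share of genes at least 2-fold higher (left) and at least 2-fold lower (right) in each comparison, as a percentage of genes above the floor on either array; coloured bars are the phosphatase genes with their counts, grey bars all genes. Among genes that rose, the phosphatase bars are tallest on day 4 over day 1 and day 7 over day 1 (11 of 48 each); among genes that fell, the phosphatase bar is above the grey one on day 7 over day 5 (6 of 46) and below it in the other comparisons.

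**Figure D2:**
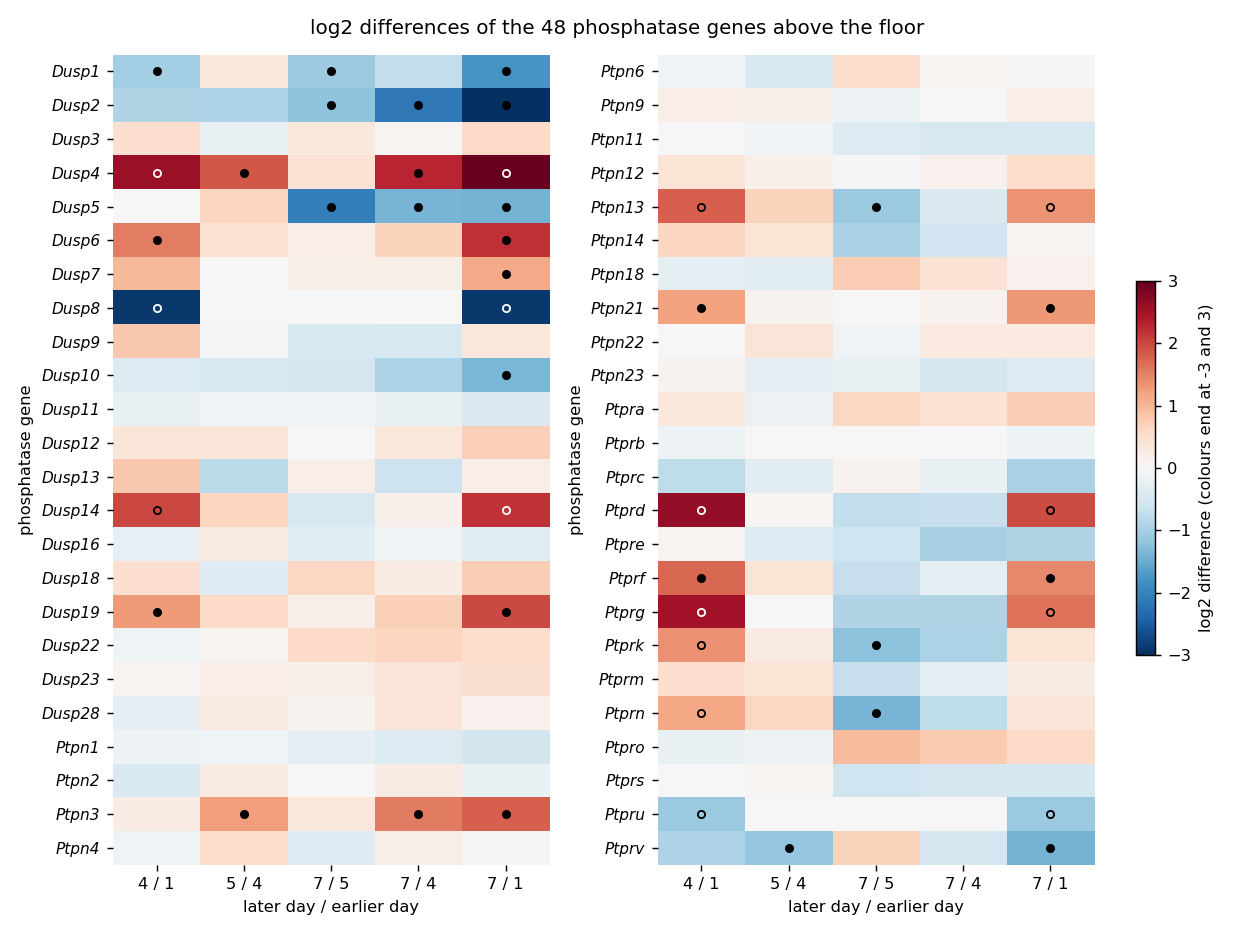
log2 differences, later over earlier day, of the 48 phosphatase genes above the floor on at least 1 array, in 5 comparisons; circles mark differences of at least 2-fold, filled where both arrays were above the floor and open where 1 was. Dusp4 has circles in 4 of the 5 columns and the level non-receptor genes such as Ptpn6 and Ptpn11 have none.

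The typical MAP kinase phosphatases, which bind ERK, JNK or p38 through a docking domain, included Dusp4, Dusp2 and Dusp8, each of which differed by more than 7-fold on day 7 over day 1. All 10 exceeded the floor on 1 array or more. On day 7 over day 1, 3 of them rose and 5 fell, with a median log2 difference of -0.83, where 12.7% of all genes rose and 16.2% fell.

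Among the 4 nuclear and inducible members, Dusp4 (probe set 1428834_at) went against the rest. Its signals were 28.7, 197, 712 and 956 on days 1, 4, 5 and 7, lowest in fresh marrow and higher at each later time. It rose at least 6.07-fold on day 4 over day 1 and 3.62-fold on day 5 over day 4, and reached at least 29.5-fold on day 7 over day 1. Each of these rises stayed above 2-fold under all 7 processing alternatives.

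Dusp1 (1448830_at), which acts on p38 and JNK and is induced by stress and glucocorticoids, had signals of 1229.6, 608, 773 and 363. It was highest in fresh marrow and lowest on day 7, 3.38-fold lower than on day 1. Its fall on day 4 over day 1 was 2.02-fold and on day 7 over day 5 2.13-fold. The day 4 fall lay at the threshold, and the one after day 5 had a log2 difference of -0.91 after median scaling and -0.92 after quantile normalization, short of 2-fold.

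Dusp2 (1450698_at), known from activated leukocytes, had signals of 367, 195, 102 and 44.2, lower at each later time. It fell 2.31-fold on day 7 over day 5, 4.42-fold on day 7 over day 4 and 8.31-fold on day 7 over day 1. The first of these was -0.83 on the log2 scale after quantile normalization, short of 2-fold. Dusp5 (1437199_at), a nuclear phosphatase specific for ERK, had signals of 207, 205, 321 and 77.8, highest on day 5 and lowest on day 7. It fell 4.13-fold on day 7 over day 5, the largest of the 6 falls at that step, 2.63-fold on day 7 over day 4 and 2.66-fold on day 7 over day 1. Its log2 difference on day 5 over day 4 was 0.65. Thus 3 of the 4 nuclear members were at their lowest on day 7 and Dusp4 was at its highest.

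Among the cytosolic phosphatases of ERK, Dusp6 (1415834_at) had signals of 803, 2338, 3214 and 3685, higher at each later time. It rose 2.91-fold on day 4 over day 1 and 4.59-fold on day 7 over day 1, with log2 differences of 0.46 and 0.20 at the later steps. Dusp7 had 174, 342, 338 and 385 and rose 2.21-fold on day 7 over day 1. Its other probe sets had signals of 111, 344, 381 and 519 and of 64, 192, 181 and 193, so that all 3 were lowest on day 1; these others rose 3.09-fold and 3-fold on day 4 over day 1, where the first had a log2 difference of 0.98. Dusp9 stayed close to the floor, with 30, 57.2, 56.2 and 40.9, and its probe sets disagreed in direction on day 4 over day 1, at 0.82 and -0.70 on the log2 scale.

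The phosphatases of JNK and p38 were lower in culture or level. Dusp8 (1428864_at) had signals of 240.1, 7.42, 12.1 and 6.09, above the floor in fresh marrow only, and fell at least 7.4-fold on day 4 over day 1. A second probe set, with 155, 33.9, 26.6 and 21.8, fell 4.57-fold. Dusp10, which acts on JNK and p38, had 101, 76.5, 55.7 and 39.5, lower at each later time, and fell 2.57-fold on day 7 over day 1. This fall stayed past 2-fold in 4 of 7 processing alternatives. Quantile normalization left a log2 difference of -0.82 and a floor of 68.9 one of -0.56. Dusp16, which prefers JNK, had 355, 301, 366 and 287 and stayed within 2-fold throughout.

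**Figure D3:**
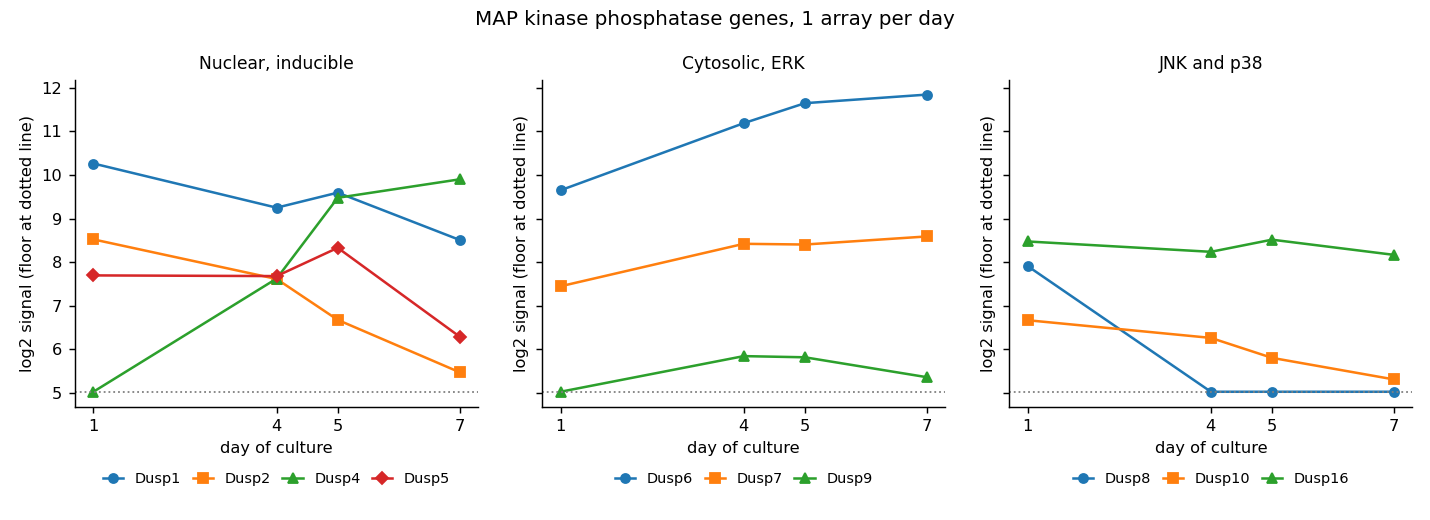
log2 signal of the 10 typical MAP kinase phosphatase genes against the day of culture, in 3 panels by location and substrate, with 1 array per day and no error bars; the dotted line is the floor of 32.4 signal units. Dusp4 and Dusp6 are highest on day 7, whereas Dusp1, Dusp2, Dusp5 and Dusp10 are lowest there and Dusp8 is above the floor on day 1 only.

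The promoters of 4 of these genes are shown because their messages moved in opposite directions. Dusp1, Dusp2 and Dusp5 fell and Dusp6 rose on day 7 over day 1. Each sequence is the 300 bases from 250 before to 50 after the gene's start, read 5′ to 3′ on the gene's strand, from RefSeq on GRCm38.p6. Capitals mark matches to any of 7 motifs searched on both strands: the cyclic AMP response element (TGACGTCA), AP-1 (TGANTCA), ETS (CCGGAAGT), the E-box (CACGTG), EGR (GCGNGGGCG), the TATA box (TATAAA) and the CArG box of serum response factor. No 2 of these matches overlap in the sequences shown. Dusp1 lies on chr17:26508423-26508722 (minus strand), Dusp2 on chr2:127335909-127336208 (plus), Dusp5 on chr19:53528895-53529194 (plus) and Dusp6 on chr10:99262981-99263280 (plus).
Dusp1: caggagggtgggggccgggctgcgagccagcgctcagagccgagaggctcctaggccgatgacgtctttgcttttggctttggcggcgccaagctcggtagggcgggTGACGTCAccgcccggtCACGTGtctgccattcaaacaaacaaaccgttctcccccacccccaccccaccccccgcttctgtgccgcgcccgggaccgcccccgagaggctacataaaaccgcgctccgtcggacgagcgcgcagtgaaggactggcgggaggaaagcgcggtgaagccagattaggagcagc
Dusp2: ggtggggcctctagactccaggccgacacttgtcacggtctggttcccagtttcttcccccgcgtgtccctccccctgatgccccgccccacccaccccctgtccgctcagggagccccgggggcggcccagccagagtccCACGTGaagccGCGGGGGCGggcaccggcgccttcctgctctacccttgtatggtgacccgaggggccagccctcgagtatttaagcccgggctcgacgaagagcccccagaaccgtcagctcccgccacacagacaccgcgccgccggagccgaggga
Dusp5: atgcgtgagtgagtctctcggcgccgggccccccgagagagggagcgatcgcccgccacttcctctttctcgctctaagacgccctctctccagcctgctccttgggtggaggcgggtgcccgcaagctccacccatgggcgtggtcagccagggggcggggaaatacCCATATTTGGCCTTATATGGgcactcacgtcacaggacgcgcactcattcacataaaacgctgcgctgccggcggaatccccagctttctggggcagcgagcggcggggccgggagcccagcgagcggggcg
Dusp6: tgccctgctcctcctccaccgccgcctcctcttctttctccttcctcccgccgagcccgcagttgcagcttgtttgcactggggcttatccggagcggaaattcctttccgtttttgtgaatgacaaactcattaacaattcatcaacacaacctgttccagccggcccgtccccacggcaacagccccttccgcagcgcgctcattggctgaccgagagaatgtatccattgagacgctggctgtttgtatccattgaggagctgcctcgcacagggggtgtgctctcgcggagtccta

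Dusp1 held a cyclic AMP response element at bases 108 to 115 and an E-box at bases 125 to 130. Dusp2 held an E-box and an EGR match, and Dusp5 a pair of adjacent CArG boxes at bases 169 to 178 and 179 to 188. None of the 7 motifs matched in these 300 bases of Dusp6. Of 32851 promoters in the table, 1.79% held the cyclic AMP response element, 7.15% the E-box, 5.55% the EGR match and 1.63% the CArG box, while AP-1 was held by 7.81%, ETS by 3.89% and the TATA box by 13.6%. A promoter was found for 46 of the 57 phosphatase genes, 61 sequences in all. The cyclic AMP response element was in 8.20% of them (Dusp1, Dusp8, Ptpn11, Ptprs and Ptpru), the EGR match in 19.7%, the CArG box in 4.92%, the E-box in 4.92%, the TATA box in 4.92%, AP-1 in 3.28% and ETS in 1.64%. A match is a stretch of letters and not a measured site.

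Genes that MAP kinases are known to induce also moved in both directions. Of 21 measured genes on a list of immediate early and MAP kinase response genes, 6 rose and 8 fell on day 7 over day 1, with a median of -0.08, where 12.7% of all genes rose and 16.2% fell. Feedback inhibitors of the RAS to ERK pathway were among the risers: Spred1 rose 6.15-fold, Spry1 5.12-fold, Spred2 2.95-fold and Spry2 2.42-fold. The ETS factor gene Etv5 rose 4.68-fold and the AP-1 gene Fosl2 2.06-fold. Nr4a1 fell 13.6-fold, Egr3 8.92-fold and Zfp36, whose product destabilises cytokine messages, 4.71-fold. Fos and Jun were within 2-fold, at 0.22 and 0.35 on the log2 scale.

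Step by step, Spred1 had signals of 409, 1203, 2162 and 2513 and Etv5 of 310.3, 1088, 1339 and 1452, highest on day 7 as Dusp4 and Dusp6 were. Egr3 had 368, 186, 109 and 41.3 and Nr4a1 698, 137, 74.1 and 51.3, lower at each later time as Dusp2 was. Of the 21 genes, 6 rose and 3 fell between days 4 and 1 (median 0.44), 0 and 2 did between days 5 and 4 (median 0.06), 0 and 3 between days 7 and 5 (median -0.43), and 1 and 7 between days 7 and 4 (median -0.36). Quantile normalization left none risen and 4 fallen between days 7 and 4, and median scaling 4 fallen. As deposited, 10% of all genes rose and 8.65% fell between days 4 and 1, and 2.02% and 4.04% between days 5 and 4. Between days 7 and 5 the shares were 0.853% and 5.84%, and between days 7 and 4 they were 3.12% and 9.12%.

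**Figure D4:**
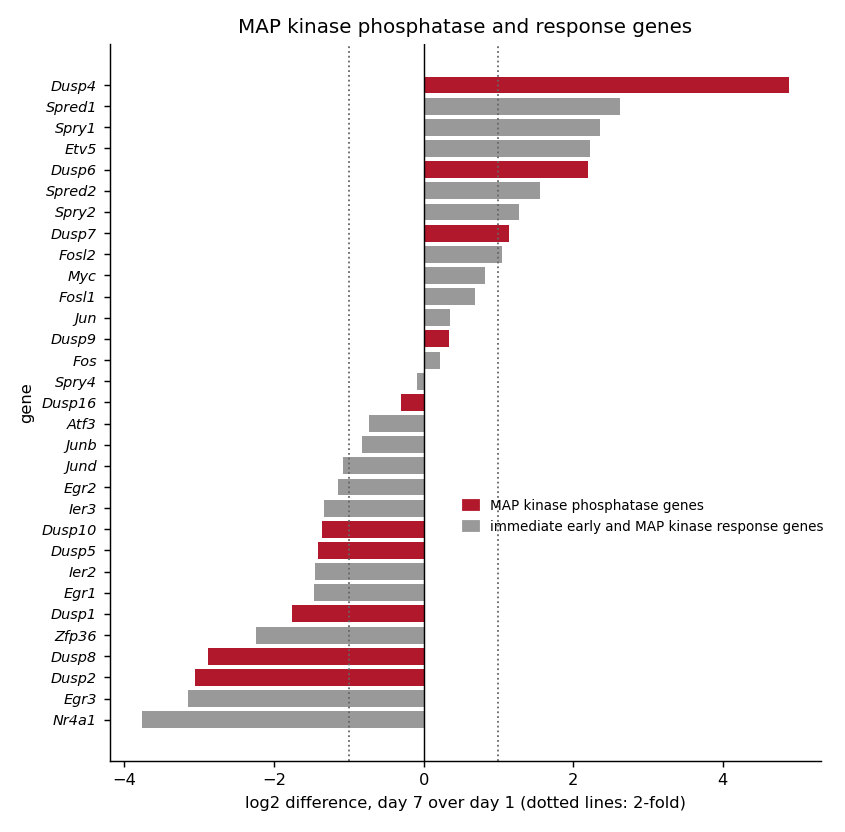
log2 difference on day 7 over day 1 of the 10 typical MAP kinase phosphatase genes (red) and the 21 measured immediate early and MAP kinase response genes (grey), 1 array per day; dotted lines mark 2-fold, and the values of Dusp4, Dusp8, Dusp9 and Spry4 are taken against the floor. Dusp4 and Dusp6 lie among Spred1, Spry1 and Etv5 at the top, and Dusp2 lies beside Egr3 and Nr4a1 at the bottom.

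Among the kinases that these phosphatases act on and their partners, the genes past 2-fold mostly fell. Of 25 measured genes of the MAP kinase cascade, 1 rose and 9 fell on day 7 over day 1, with a median of -0.28, beside 12.7% and 16.2% of all genes. Mapk13, a p38 gene, had signals of 992, 67.6, 14.5 and 2.33 and fell at least 30.6-fold. The p38 target gene Mapkapk3 fell 5.08-fold, the scaffold gene Ksr1 5.17-fold and Braf 4.7-fold. The riser was Map2k6, an activator of p38, with signals of 44.9, 34.6, 63.2 and 94.9 and a rise of 2.11-fold. The counts of risen and fallen genes were 0 and 3 between days 4 and 1 (median -0.18), 0 and 4 between days 5 and 4 (median -0.03), 0 and 2 of 24 between days 7 and 5 (median -0.18), and 1 and 6 between days 7 and 4 (median -0.33). Over all genes, 10% rose and 8.65% fell between days 4 and 1, and 2.02% and 4.04% between days 5 and 4. The shares were 0.853% and 5.84% between days 7 and 5, and 3.12% and 9.12% between days 7 and 4. The summed signal of 12 neutrophil markers was 121866, 74559.5, 41264 and 6278 on days 1, 4, 5 and 7, and 12 of 12 of them fell on day 7 over day 1. Their part in the falls of Dusp1, Dusp2 and the kinases was not tested. In these unsorted cultures fewer cells of a type and less RNA per cell cannot be told apart.

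The atypical dual-specificity phosphatases, small enzymes without the docking domain for MAP kinases, held 2 risers among 10 measured genes, on day 4 over day 1 (10% of all genes) and on day 7 over day 1 (12.7% of all genes) alike. Dusp19, which binds kinases of the JNK pathway, had signals of 128, 309, 459.7 and 507, higher at each later time. It rose 2.42-fold on day 4 over day 1 (0.86 on the log2 scale with the mean over all its probe sets) and 3.97-fold on day 7 over day 1, and a second probe set, with 82, 202, 317 and 354, rose 4.31-fold on day 7 over day 1. Dusp14, which can act on ERK and JNK, had 23, 129, 202 and 145, at the floor in fresh marrow and highest on day 5, and it rose at least 3.99-fold and at least 4.46-fold in the same comparisons. With a floor at the 60th percentile of all values its day 4 rise was 0.91 on the log2 scale.

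The main probe sets of the other 8 measured genes of this type stayed between -0.82 and 0.82 on the log2 scale in all 5 comparisons. Dusp3, which can dephosphorylate ERK and JNK, had 1136, 1601, 1375 and 1699.9, and Dusp11, which acts on RNA ends, had 1207, 1030.2, 975 and 889. Dusp22, which restrains T cell receptor signalling, had 415, 380.0, 402 and 597, highest on day 7, and Dusp12 had 203, 262, 335 and 331. Dusp28 was level at 147, 122, 148 and 159. Dusp13, Dusp18 and Dusp23 had low signals that were under or little above the floor, with 32.1, 57.1, 1.19 and 37.1 for Dusp13, 12.5, 45.9, 35 and 53.9 for Dusp18 and 35.6, 37.9, 43.6 and 49.2 for Dusp23.

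The non-receptor phosphatases with a FERM domain, which places them under the plasma membrane, were 5 genes, all measured. On day 7 over day 1, 3 of the 5 rose, where 12.7% of all genes did. Between days 4 and 1, 2 of the 5 rose (10% of all genes), and between days 5 and 4, 1 did (2.02%). Ptpn3 (1455450_at), which carries a PDZ domain as well, had signals of 45.6, 53.4, 126 and 158. The levels of days 1 and 4 lay close together and both cytokine days were higher. It rose 2.37-fold on day 5 over day 4 and 2.96-fold on day 7 over day 4, when Ptpn3 and Dusp4 were the only risers among the 45 measured members. Ptpn3 had 1 probe set, and with a floor of 68.9 its day 5 rise was 0.88 on the log2 scale, short of 2-fold.

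Ptpn13, a large phosphatase with several PDZ domains, had 16.5, 112, 178 and 82.3, at the floor in fresh marrow and highest on day 5. It rose at least 3.44-fold on day 4 over day 1 and fell 2.17-fold on day 7 over day 5; after median scaling that fall had a log2 difference of -0.94 and after quantile normalization of -0.78, and the rise had one of 0.70 with a floor of 68.9 and 0.89 with the mean over probe sets. Ptpn21 had 37.8, 87.5, 94.1 and 93.8, lowest in fresh marrow and level from day 4, and rose 2.31-fold on day 4 over day 1. A second probe set of Ptpn21 rose 2.25-fold. With a floor of 68.9 the log2 difference of Ptpn21 was 0.35. Ptpn14, which binds the growth regulator YAP, had 121, 189, 250.4 and 128, highest on day 5, with a log2 difference of -0.97 on day 7 over day 5. Ptpn4 had 265, 241, 354 and 272 and stayed within 2-fold.

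The non-receptor phosphatases best known from blood cells were level on their main probe sets. Across those of Ptpn1, Ptpn2, Ptpn6, Ptpn11, Ptpn12, Ptpn18 and Ptpn22, each log2 difference in the 5 comparisons lay between -0.56 and 0.77. Ptpn6 (1460188_at), which is recruited to inhibitory receptors by its SH2 domains and restrains osteoclasts, had signals of 4120.5, 3802, 2748 and 3940.4, lowest on day 5. Its relative Ptpn11, which promotes signals from growth factor receptors to ERK, had 1795, 1787, 1692 and 1285, lowest on day 7.

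Ptpn12, a PEST phosphatase that acts on adhesion proteins and podosomes, had 4182, 5517, 6155 and 5999.5, and all 4 of its probe sets were lower in fresh marrow than on day 4. Ptpn22, which dampens Src family kinases in lymphocytes, had 646, 643, 842 and 785, and Ptpn18 had 3696, 2993, 2359 and 4021, lowest on day 5 and highest on day 7. These were differences within 2-fold. A second, weaker probe set of Ptpn18 had 90.9, 56.5, 4.49 and 37.6, highest in fresh marrow. It fell 2.42-fold on day 7 over day 1, where the main one had a log2 difference of 0.12.

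Ptpn1, which acts on the insulin receptor and on JAK kinases, had 3921, 3549, 3249 and 2657, lower at each later time. A second probe set had 1606, 1828, 1190.3 and 847 and fell 2.16-fold on day 7 over day 4, where the first had a log2 difference of -0.42, so the size of this difference depends on the probe set. Ptpn2, which acts on JAK kinases too, had 2133, 1565, 1838 and 1865. Ptpn9 of secretory vesicles had 326, 374, 422 and 377 and Ptpn23 of endosomal sorting had 157, 169, 137 and 119.9; neither moved by 2-fold.

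The main probe sets of Ptprc, Ptpre, Ptpra and Ptpro, receptor phosphatases of leukocytes and osteoclasts, were within 2-fold in the 5 comparisons. Ptprc (1422124_a_at) encodes the leukocyte common antigen CD45, which activates Src family kinases, and had signals of 8722, 5136, 4101 and 4424. It was highest in fresh marrow, with a log2 difference of -0.98 on day 7 over day 1, just short of 2-fold, and its lowest signal, on day 5, was 2.13-fold below that of day 1. A second, weaker probe set of Ptprc had 344, 86.1, 25.9 and 11.2 and fell 4-fold on day 4 over day 1 and at least 2.65-fold on day 5 over day 4, where it reached the floor, so that these probe sets moved one way in both comparisons but by different amounts.

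Ptpre (1418540_a_at), whose cytosolic form activates Src in osteoclasts, had 1844, 1950.3, 1481 and 985. It was highest on day 4 and lowest on day 7, with a log2 difference of -0.99 on day 7 over day 4, and a second probe set, with 1623, 1193, 1169 and 955, had -0.32. Ptpra, another activator of Src, had 1346, 1663, 1466 and 2259, highest on day 7. Its second, much weaker probe set had 16, 49.5, 43.2 and 8.66, above the floor on days 4 and 5 only and lowest on day 7. Ptpro (1417676_a_at), of which osteoclasts make a short form, had 475, 407, 364 and 706, lowest on day 5 and highest on day 7. Its log2 difference on day 7 over day 5 was 0.96, 1.13 after median scaling and 1.07 after quantile normalization, so that it passed 2-fold under both scalings and not as deposited. The second probe set of Ptpro had 106, 59.4, 78.9 and 114, with a log2 difference of 0.53 at that step. Src itself, the kinase that these receptors act on, had 83.9, 232, 330.5 and 372 and rose 4.43-fold on day 7 over day 1.

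Ptprv, known from bone-forming cells and testis, had 142, 75, 33.4 and 53, highest in fresh marrow. It fell 2.25-fold on day 5 over day 4 and 2.67-fold on day 7 over day 1. The first was -0.12 on the log2 scale with a floor of 68.9 and -0.88 with no floor and 16 added, and the second was -0.95 after quantile normalization. Ptpru, a receptor of the MAM type, had 70.3, 5.26, 32.6 and 12.7, and fell at least 2.17-fold on day 4 over day 1. Its log2 difference was -0.89 after quantile normalization and -0.03 with a floor of 68.9. The endothelial receptor gene Ptprb, with 36.3, 26.8, 29.3 and 18.9, was barely above the floor in fresh marrow only. Of 8 endothelial markers 7, 6, 6 and 6 were above the floor on days 1, 4, 5 and 7, with a summed signal of 1066, 875, 733 and 358.

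Several receptor phosphatases, most with extracellular adhesion domains, rose on day 4. Of 14 receptor genes measured on day 4 over day 1, 5 rose, where 10% of all genes did. They were Ptprd, Ptprf, Ptprg, Ptprk and Ptprn, and each of these 5 had a lower signal on day 7 than on day 5. Ptprd (1424886_at), a relative of the adhesion receptor LAR, had signals of 31.1, 202, 209 and 126, at the floor in fresh marrow. It rose at least 6.24-fold on day 4 over day 1, and further probe sets with 39.3, 142, 151 and 84.6 and 19.9, 137, 113 and 71.5 rose 3.6-fold and at least 4.22-fold.

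Ptprf (1420843_at), which encodes LAR itself, had 103, 343, 454 and 282, highest on day 5. It rose 3.32-fold on day 4 over day 1 and all 3 of its probe sets rose in that comparison. Ptprg (1434360_s_at), with a domain like that of carbonic anhydrases, had 10.5, 187, 188 and 99.9 and rose at least 5.76-fold. Without probe sets designed to match several transcripts it was represented by another one, with 15, 63.2, 73.9 and 32.6, and its log2 difference was 0.96.

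Ptprk, a homophilic adhesion receptor, had 13.3, 83.5, 101 and 43.2, rose at least 2.57-fold on day 4 over day 1 and fell 2.34-fold on day 7 over day 5, with -0.85 on the log2 scale after quantile normalization. Ptprn, a protein of secretory granules without phosphatase activity, had 29.3, 72.8, 113 and 42.7, rose at least 2.24-fold and fell 2.64-fold in the same comparisons. Both were highest on day 5. With the mean over probe sets the day 4 rises of Ptprd, Ptprg and Ptprk were 0.94, 0.87 and 0.19 on the log2 scale, short of 2-fold. Ptprm, of the same type as Ptprk, had 127, 182, 240.4 and 148, and Ptprs, of the LAR type, had 549, 542, 575 and 383. Neither moved by 2-fold, and both were highest on day 5.

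The stromal and osteoblast markers, taken as a sum, moved with these receptors. Of 12 such markers, 9, 11, 11 and 11 were above the floor on days 1, 4, 5 and 7, and Postn was below it on all 4. Their summed signal was 2328, 23998, 32710.3 and 19097, lowest in fresh marrow and highest on day 5, and 11 of 11 measured markers rose on day 4 over day 1 while 6 of 11 fell on day 7 over day 5. Their part in the levels of Ptprd, Ptprf, Ptprg, Ptprk, Ptprn and Ptpn13 was not tested. Of the 11 phosphatase genes that rose on day 4, 8 had a negative and 3 a positive log2 difference on day 7 over day 5, and the 3 were Dusp4, Dusp6 and Dusp19. The median of all genes at that step was -0.11 as deposited, 0.06 after median scaling and 0.03 after quantile normalization. The share of all genes with a negative difference was not computed. Ptpn21 counted as negative at -0.01, and was positive at 0.17 after median scaling and 0.27 after quantile normalization.

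**Figure D5:**
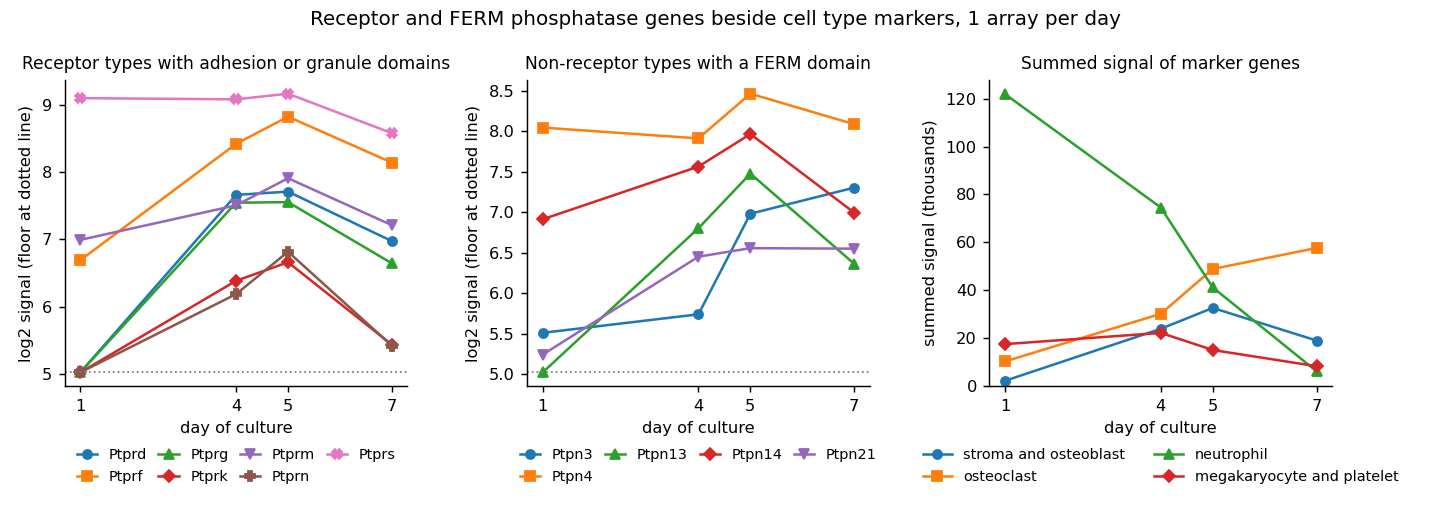
log2 signal of 7 receptor phosphatase genes (left) and 5 FERM phosphatase genes (middle) against the day of culture, with the floor as a dotted line, and the summed signal of 4 marker lists (right, scaled down as the axis states), 1 array per day. The receptor genes and the summed signal of the stromal markers are highest on day 5, while Ptpn3 is highest on day 7, as is the summed signal of the osteoclast markers.

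A list of phosphatases outside these families held cysteine phosphatases and their relatives, together with the Eya genes, whose products use an aspartate. Of 34 such genes on the array, 4 rose and 6 fell among 31 measured on day 4 over day 1, with a median of 0.07, where 10% of all genes rose and 8.65% fell. The counts of risen and fallen genes were 0 and 1 between days 5 and 4 (median 0.04), 1 and 2 between days 7 and 5 (median -0.14), 2 and 4 between days 7 and 4 (median -0.18) and 4 and 7 between days 7 and 1 (median 0.12). The shares of all genes that rose and fell were 2.02% and 4.04%, 0.853% and 5.84%, 3.12% and 9.12%, and 12.7% and 16.2% in these comparisons, in the same order. Eya4 rose at least 3.56-fold and Tns2, which also binds integrin tails, at least 3.42-fold on day 4 over day 1, when Mtmr3, a phosphatase of inositol lipids, fell 2.9-fold and Cdkn3, which acts on cyclin-dependent kinases, 2.77-fold. Cdkn3 then rose 3.33-fold on day 7 over day 4.

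Genes of ITAM and Src family signalling, whose products several of these phosphatases act on, had more falls than rises. Of 30 measured on day 7 over day 1, 2 rose and 9 fell, with a median of -0.38, against 12.7% and 16.2% of all genes. The risers were Src and the adaptor gene Lat2, at 3.15-fold. The B cell kinase gene Blk fell at least 15-fold, the myeloid kinase gene Fgr 7.65-fold and Syk 3-fold. The inhibitory receptor gene Pirb, whose product recruits Ptpn6, had 3241, 1708, 743 and 616 and fell 5.26-fold, and Sirpa, which recruits Ptpn6 and Ptpn11, was level at 5764, 7312, 5590.5 and 5870.1. Between days 4 and 1, 3 of 31 rose and 4 fell (median -0.15), and the counts were 0 and 2 between days 5 and 4 (median -0.29), 0 and 4 between days 7 and 5 (median -0.01) and 0 and 8 between days 7 and 4 (median -0.42). Among all genes, 10% rose and 8.65% fell between days 4 and 1, and 2.02% and 4.04% between days 5 and 4. For days 7 and 5 these shares were 0.853% and 5.84%, and for days 7 and 4 they were 3.12% and 9.12%. Of 9 B cell markers, 9, 8, 5 and 3 were above the floor on days 1, 4, 5 and 7, and 7 fell on day 7 over day 1 (median -3.60). Their summed signal was 9041, 5345, 2766 and 2831, to which Blnk gave 2076, 2824, 2059 and 2564. The summed signal of 11 macrophage and monocyte markers was 44260.2, 64706, 62574 and 63843.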

How the data were processed

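The authors deposited linear intensity values, 1 per probe set and array. GCOS 1.4 and MAS5 are named in the submitters' processing notes; a scaling target was not found there. Per the labels, Trizol and RNeasy gave the RNA, of which 250.0 ng was labelled with biotin. Of 45101 probe sets, 64 controls were left out. Each gene was read from the probe set whose mean log2 signal was highest, and signals under 32.4 were raised to that floor. Symbols came from the platform annotation, and those with several genes were not used. Comparisons are log2 differences between 2 arrays, with no test. Of each phosphatase gene past 2-fold, and of 16 chosen for their known roles, all 4 signals are given; others are given by group, and some of their signals were added after the values were seen. Of 4 further lists, the 4 genes with the largest differences per comparison were to be given; the other list genes named were chosen after their values were seen. The members and lists were chosen with earlier results of these data known. Alternatives were 2 other floors, no floor with 16 added, 2 scalings and 2 treatments of probe sets. The number of arrays limits the precision. Detection calls were not used here. Python 3.11.15, numpy 2.4.6, pandas 2.3.3 and matplotlib 3.10.9 were used.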

Additional observations from a re-analysis of the deposited data

How the results depend on the processing

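Of 45 calls past 2-fold in the 5 comparisons, 20 held under each alternative that could be computed for the gene, and none turned its sign. On day 4 over day 1 the 11 risers became 6 with a floor at the 60th percentile (68.9), 6 with the mean over probe sets and 7 without probe sets matching several transcripts. On day 5 over day 4 the 2 risers became 4 with a floor at the 25th percentile (8.43) and 1 at the 60th, and the 1 fallen gene became 2, 0 and, without probe sets matching several transcripts, 2. On day 7 over day 5 the 0 risers became 2 with the lower floor and 1 each with no floor and 16 added, quantile normalization and median scaling, and the 6 fallen became 3 with the higher floor, 3 with 16 added and 2 after quantile normalization. On day 7 over day 4 the 2 fallen became 4 without probe sets matching several transcripts, and on day 7 over day 1 the 11 risers became 7, 6 and 6 with the higher floor, the mean over probe sets and those probe sets left out. The cause was not tested. Over all genes, the share of risers among genes past 2-fold was 12.7% as deposited, 27.2% after median scaling and 31.7% after quantile normalization on day 7 over day 5; the same shares were 25.5%, 39.9% and 43.8% on day 7 over day 4, and 43.9%, 53.1% and 56.3% on day 7 over day 1. No paired analysis was possible because each time had 1 array. With the floor at 68.9, Dusp14, Ptpn13, Ptpn21, Ptprk, Ptprn and Ptpru were short of 2-fold on day 4 over day 1; with the mean over probe sets, Dusp19, Ptpn13, Ptpn21, Ptprd, Ptprg, Ptprk and Ptpru were.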

Other observations

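Cells other than osteoclasts and stroma were also followed through their markers, since phosphatases such as Ptprc, Ptpn6 and Dusp2 are shared by many blood cells. Red cell markers were mostly gone after the first step: of 7 on the array, 7, 2, 2 and 2 were above the floor on days 1, 4, 5 and 7, with Alas2 at 8302, 2.19, 1.77 and 1.71. Markers of mast cells, basophils and eosinophils had a summed signal of 16119.8, 1646, 974 and 129 and those of T and NK cells of 1217, 528, 379 and 225. Of 9 megakaryocyte and platelet markers, 8 fell on day 5 over day 4, 8 fell between days 7 and 1 (median -3.44), and 9, 9, 9 and 6 were above the floor on days 1, 4, 5 and 7. The exception was Pf4, at 8628, 10990.2, 11871 and 8027. The macrophage gene Csf1r, which encodes the M-CSF receptor, stayed level at 11964, 11068, 11752 and 11651. Other genes of its list did not: of 11 macrophage and monocyte markers, 4 rose and 2 fell on day 7 over day 1. The log2 differences of the 11 ran from -6.90 to 2.38.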
